A study of Mus musculus with 30 samples.

Results

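The data described here show how the response of macrophages to interleukin 4 (IL-4) differed when the transcription factor Etv1 was knocked down. The measure is an interaction: the log2 change with IL-4 in cells carrying a short hairpin RNA (shRNA) against Etv1, minus the log2 change with IL-4 in cells carrying a control shRNA. The libraries were chosen by their labelled genotype and stimulus, which took in 12 of the 30 libraries of the series. They fell into 4 groups of 3 libraries: control shRNA unstimulated, control shRNA with IL-4 at 20 ng/mL, Etv1 shRNA unstimulated, and Etv1 shRNA with IL-4 at 20 ng/mL. All 4 groups were bone marrow derived macrophages of C57BL/6 mice, grown with the macrophage growth factor CSF-1 at 20 ng/mL and mature at day 7. The Etv1 hairpins were delivered by lentiviral particles. The vector of the control hairpin, the hairpin sequences, the number of hairpins and the time in IL-4 were not given in the sources used here. Knockdown lowers a transcript and leaves the gene in place. The other 18 libraries were IL-4 with prostaglandin E2 in both hairpins and 12 libraries labelled wild type, of which the unstimulated and IL-4 groups served below as an outside measure of the IL-4 response.

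IL-4 engages a receptor on macrophages that activates the transcription factor STAT6, and the cells take up the alternatively activated state known from tissue repair and worm infection. Arginase 1 (Arg1), the secreted protein Retnla, the chitinase-like protein Chil3 and the mannose receptor Mrc1 are its usual marks, and Socs1 is a feedback inhibitor of the same pathway. ETV1 belongs to the ETS family, whose members bind DNA at a GGAA core and in other tissues often act downstream of MAP kinase signalling.

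Etv1 itself (ENSMUSG00000004151, chr12:38779380-38870484 on GRCm38) was low in every Etv1 shRNA library. As CPM, the counts scaled to a common library size, it measured 10.9, 10.4 and 10.5 in unstimulated and 15.3, 11.5 and 14.9 in IL-4-treated control shRNA cells, against 4.84, 2.51 and 2.97 in unstimulated and 6.00, 4.97 and 5.02 in IL-4-treated Etv1 shRNA cells. The highest Etv1 shRNA library lay below the lowest control shRNA library. The hairpin lowered Etv1 by −1.69 (log2) without IL-4 and by −1.39 with IL-4 (edgeR, adjusted p = 1.16e-06 and 4.41e-06). The interaction for Etv1 was 0.30 ± 0.28 (log2, SE) and did not pass the test (edgeR, adjusted p = 0.712).

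Each of the 12 libraries held 6924973 to 20658411 counts, so that 3 counts, the limit that a count of 0 allows, corresponded to 0.145 to 0.433 CPM. The 2 control shRNA libraries numbered 2 stood apart: chi-square per degree of freedom against their replicates was 12.1 to 20.3, against 2.81 to 6.69 for the other pairs, and the total counts below, and the list counts that move by over 1.5 times, are also given without them. All 18 macrophage identity genes passed the filter on low counts. Their summed level was 25300 to 27500 CPM in unstimulated and 22600 to 24700 in IL-4-treated control shRNA cells. With the Etv1 hairpin it was 13300 to 13800 and 14500 to 15100 CPM. Members varied unequally over the libraries. Lyz2 ranged from 3880 to 14500 CPM, Adgre1 from 815 to 3190 and Mpeg1 from 704 to 3470. Spi1 ranged only from 464 to 600 CPM, Itgam from 366 to 550 and Tyrobp from 591 to 897. The median hairpin effect of the 18 genes (Etv1 minus control shRNA, log2) was −0.54 at rest and −0.62 with IL-4. Among monocyte markers 3 of 7 passed the filter. Their list summed to 18.1 to 28.1 and 33.4 to 37.2 CPM with the control hairpin. With the Etv1 hairpin it summed to 99.4 to 112 and 145 to 192 CPM, most of it Vcan, a matrix proteoglycan. Vcan ranged from 3.62 to 186 CPM over the libraries and Ccr2 from 3.18 to 18.4 CPM. The median hairpin effect of the 3 tested markers was −1.62 at rest and −1.43 with IL-4, so the sum did not show the course of each. Ly6c2, the defining marker, reached at most 0.571 CPM. The summed level of neutrophil markers (3 of 11 passed) was 15.1 to 18.2 and 34.4 to 41.5 against 1.61 to 3.35 and 4.76 to 5.95 CPM, nearly all of it Csf3r and Cxcr2, with Ly6g at 0 counts. Eosinophil markers (2 of 5 passed) summed to 4.5 to 5.50 and 9.66 to 11.9 against 26.2 to 36.0 and 33.2 to 48.6 CPM, nearly all of it Ccr3, with Il5ra at 0 counts. Erythroid and megakaryocyte markers (2 of 7 passed) summed to 48.4 to 124 and 57.6 to 121 against 202 to 251 and 194 to 248 CPM, nearly all of it the chemokine Pf4, with Hbb-bs and Hba-a1 at 0 counts. Dendritic, lymphocyte, stromal and mast cell lists each summed to at most 3.88 CPM in any library, and Siglech, Cd3e, Col3a1 and Cpa3 had 0 counts. None of the markers of other cell types passed the test of the interaction in edgeR without a block or in DESeq2, while 2 had an unadjusted p under 0.05, and with the replicate number within hairpin as a block Vcan and Ccr3 were lower (adjusted p = 0.0187 and 0.00474). The part of these lists in the results below was not tested. In bulk libraries such as these, fewer cells of a type and less RNA per cell cannot be told apart.

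IL-4 raised 2130 of 12382 genes tested (17.2%) and lowered 2117 (17.1%) in control shRNA cells, and raised 1346 (10.9%) and lowered 887 (7.16%) in Etv1 shRNA cells, at a Benjamini-Hochberg adjusted p under 0.05 in edgeR. Genes past a threshold with one hairpin and not with the other do not show a difference, so the interaction was tested itself. It was higher for 335 genes (2.71%) and lower for 224 (1.81%), 559 in all, where higher means that the log2 IL-4 effect was more positive, or less negative, with the Etv1 hairpin. The difference was at least 2-fold for 57 of the higher and 48 of the lower genes. Median sizes were 0.61 among higher genes (range 0.23 to 3.17) and −0.60 among lower genes (−4.44 to −0.26). The labels do not say what a replicate number marks, but libraries of the same number deviated alike within a hairpin. With the replicate number within hairpin as a block, 845 genes (6.82%) were higher and 568 (4.59%) lower, which included 557 of the 559. Calls given without mention of a block, and the fits that omit 1 library, had no block. Without both control shRNA libraries numbered 2, 732 genes were called, 391 higher and 341 lower. Without control shRNA IL-4 replicate 1 the count was 361, and without control shRNA IL-4 replicate 3 it was 360. The higher genes numbered 176 and 208 without these 2 libraries and 218 without control shRNA unstimulated replicate 1.

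**Figure D1:**
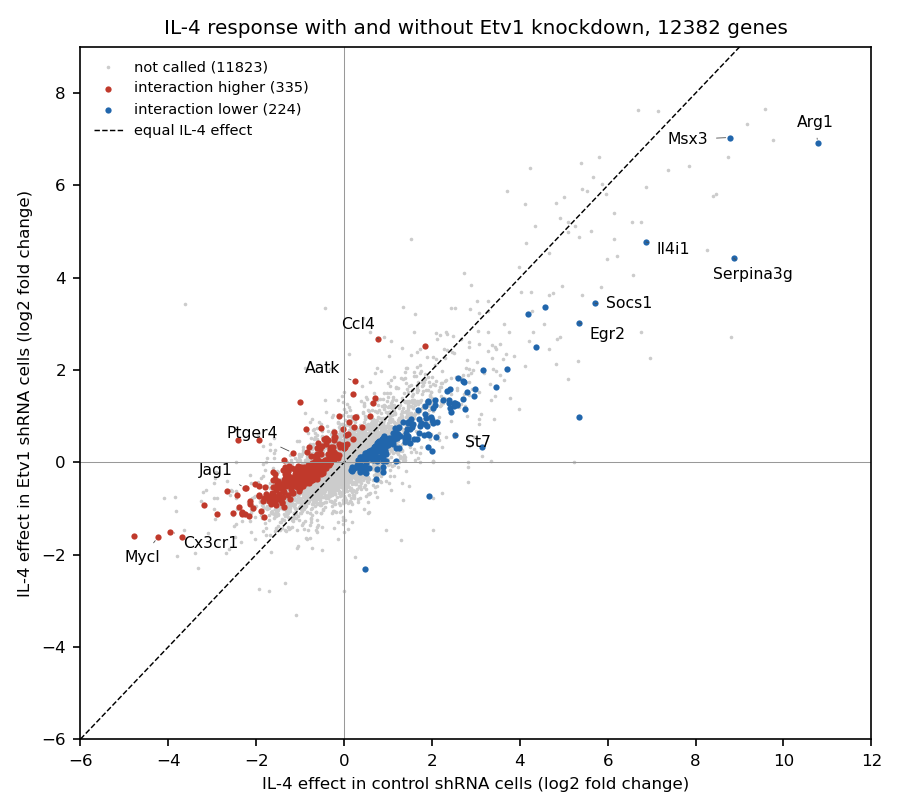
IL-4 effect (log2 fold change) in control shRNA cells on the x axis and in Etv1 shRNA cells on the y axis, with 1 point for each of 12382 genes tested and 3 genes outside the axes. The 335 genes with a higher interaction (red) lie above the line of equal effect, mostly at negative x values, and the 224 with a lower interaction (blue) lie below it, mostly at positive x values.

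The interaction ran against the direction of the IL-4 response measured in other cells. In the wild type libraries, which share no library with the interaction, IL-4 raised 2974 (25%) and lowered 2793 (23.5%) of the 11906 genes tested in both experiments. Of the 335 genes with a higher interaction, 286 (85.4%) were lowered by IL-4 in wild type cells and 11 were raised. Of the 224 with a lower interaction, 206 (92.0%) were raised by IL-4 in wild type cells and 2 were lowered. The 286 made up 10.2% of the genes lowered in wild type, and the 206 made up 6.93% of those raised. Gadd45a, a stress-induced regulator of growth arrest named after its values were seen, was among these exceptions. The 11 among higher genes were Ccl3, Ccl4, Epha2, Mrtfb, Tnfaip3, Fkbp5, Slc2a1, Xylt1, Tbc1d4, Dusp5 and Pim3.

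Genes with a large wild type response showed the same pattern by size. IL-4 raised 496 genes (4.17%) at least 2-fold in wild type cells, and of these 89 (17.9%) had a lower and 4 a higher interaction. Their median IL-4 effect was 1.74 (log2) in wild type, 1.66 with the control hairpin and 1.17 with the Etv1 hairpin. IL-4 lowered 335 genes (2.81%) at least 2-fold in wild type cells, and of these 86 (25.7%) had a higher and 0 a lower interaction in edgeR, also 0 lower at an unadjusted p under 0.05 and in DESeq2. The median IL-4 effect of these was −1.32 in wild type, −1.04 with the control hairpin and −0.52 with the Etv1 hairpin. Median interactions were −0.48 for the raised and 0.57 for the lowered list, against 0.02 over all genes tested. With the replicate block, 168 of the raised list were lower and 13 higher, and 151 of the lowered list were higher and 1 lower. Both groups of libraries entered these differences: for the raised list the median hairpin effect (Etv1 minus control shRNA, log2) was 0.07 without and −0.54 with IL-4, and for the lowered list it was −0.39 without and 0.14 with IL-4. Without the control shRNA libraries numbered 2, the counts were 126 lower of the raised list and 100 higher of the lowered list.

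**Figure D2:**
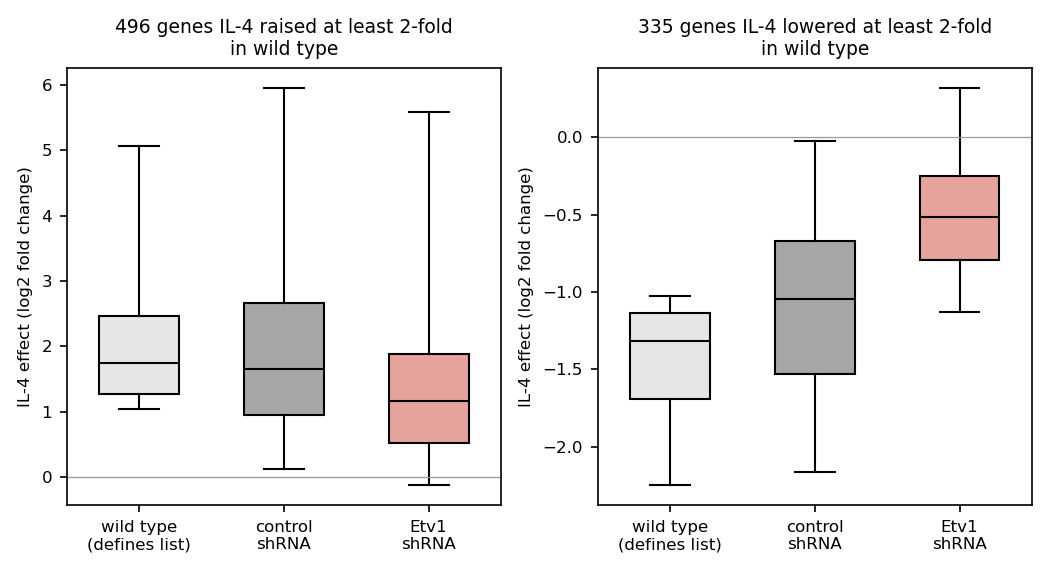
IL-4 effect (log2 fold change, y axis) of the 496 genes raised and the 335 genes lowered at least 2-fold by IL-4 in wild type cells, shown for wild type, control shRNA and Etv1 shRNA libraries; boxes span the quartiles, the line is the median and whiskers reach the 5th and 95th percentiles. Medians run from 1.74 to 1.66 to 1.17 for the raised list and from −1.32 to −1.04 to −0.52 for the lowered list, and the wild type boxes show the values that defined the lists.

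ETS factors bind at GGAA, so the promoters of called genes were read for it. A promoter here is 300 bases, from 250 before to 50 after a RefSeq transcription start on GRCm38.p6, and 9475 of the genes tested had one, among them 258 higher and 177 lower genes. Of the 77 named genes called, 59 had a promoter to read, and Arg1 did not. The 4 below are shown because Socs1 and Jag1 are among the called genes described next, and Cenpf and Tmem144 for their sequence. Of the 59, Cenpf is the only gene whose promoter holds CCGGAAGT. Tmem144, a membrane protein, is the only gene of the 59 whose promoters hold TTCC, 4 bases of any kind and GGAA in a row. Cenpf and Tmem144 were picked after this was seen. Socs1 (lower) lies at chr16:10785487-10785786 on the minus strand, Jag1 (higher) at chr2:137116471-137116770 on the minus strand, Cenpf (higher) at chr1:189688037-189688336 on the minus strand and Tmem144 (lower) at chr3:79842860-79843159 on the minus strand. Each is printed 5′ to 3′ in the direction of the gene, with every GGAA or its reverse complement TTCC in capitals.

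Socs1: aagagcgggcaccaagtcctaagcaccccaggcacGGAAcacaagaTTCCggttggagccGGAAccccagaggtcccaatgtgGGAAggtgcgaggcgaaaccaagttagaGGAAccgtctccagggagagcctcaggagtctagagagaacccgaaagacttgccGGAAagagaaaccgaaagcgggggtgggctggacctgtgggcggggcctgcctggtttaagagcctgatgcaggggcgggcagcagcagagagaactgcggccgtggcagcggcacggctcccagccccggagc

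Jag1: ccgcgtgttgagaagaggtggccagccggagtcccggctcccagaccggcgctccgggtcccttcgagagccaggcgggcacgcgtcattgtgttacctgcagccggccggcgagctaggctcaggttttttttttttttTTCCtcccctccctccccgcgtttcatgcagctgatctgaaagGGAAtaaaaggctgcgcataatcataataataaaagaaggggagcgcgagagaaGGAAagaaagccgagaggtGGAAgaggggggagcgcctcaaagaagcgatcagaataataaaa

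Cenpf: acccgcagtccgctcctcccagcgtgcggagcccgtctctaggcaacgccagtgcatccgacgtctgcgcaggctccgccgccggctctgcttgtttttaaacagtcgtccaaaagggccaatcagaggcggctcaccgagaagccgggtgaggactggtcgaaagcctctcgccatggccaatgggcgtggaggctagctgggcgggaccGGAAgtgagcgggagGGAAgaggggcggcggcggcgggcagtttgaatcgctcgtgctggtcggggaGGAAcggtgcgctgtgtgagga

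Tmem144: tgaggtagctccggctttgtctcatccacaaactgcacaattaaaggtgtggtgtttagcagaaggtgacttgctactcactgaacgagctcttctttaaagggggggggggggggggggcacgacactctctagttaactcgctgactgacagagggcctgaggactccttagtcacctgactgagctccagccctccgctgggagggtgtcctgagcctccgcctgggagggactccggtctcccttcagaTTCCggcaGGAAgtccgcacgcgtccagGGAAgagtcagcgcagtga

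The bare core GGAA, on either strand, was present in 96.9% of higher and 92.1% of lower genes' promoters, and in 96.6% of those of all genes tested. The longer ETS sequence CCGGAAGT, on either strand, was present in 2.33% of higher and 5.08% of lower genes' promoters, against 9.64% of all genes tested and 4.31% of all promoters in the table. The palindrome of TTCC, 4 bases of any kind and GGAA overlaps the GGAA count. It was present in 0.388% of higher and 0.565% of lower genes' promoters, against 1.26% of all genes tested and 0.947% of the table. These are matches of letters in a fixed window and not sites of binding.

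Among marks of alternative activation, the list of 30 genes had 27 tested, of which 6 had a lower and 0 a higher interaction in edgeR, against 1.81% and 2.71% of all genes: Egr2, Tgm2, Arg1, Atp6v0d2, Clec7a and Ppargc1b. At an unadjusted p under 0.05, 12 were lower and 0 higher. The median IL-4 effect of the list was 4.18 (log2) with the control and 3.03 with the Etv1 hairpin, and the median interaction was −0.96, against 0.02 over all genes. With the replicate block 11 were lower and 1 higher, and without Etv1 shRNA unstimulated replicate 3 only 3 were called. DESeq2 called 10 lower and 0 higher.

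Arg1, the enzyme that splits arginine into urea and ornithine (ENSMUSG00000019987, chr10:24915221-24927484), measured 0.391, 0.326 and 0.204 CPM in unstimulated and 681, 502 and 607 CPM in IL-4-treated control shRNA cells, and 1.34, 1.17 and 2.81 against 223, 173 and 276 CPM with the Etv1 hairpin. IL-4 brought it up in all pairs, from a lower start and to a higher end with the control hairpin, and neither the unstimulated nor the IL-4 groups overlapped. The IL-4 effect was 10.78 ± 0.38 (log2, SE) with the control and 6.91 ± 0.32 with the Etv1 hairpin, an interaction of −3.87 ± 0.73 (edgeR, adjusted p = 0.00843). The unstimulated control libraries held 14 Arg1 counts in all and the unstimulated Etv1 shRNA libraries 60, so the starting level limits the precision. Without Etv1 shRNA unstimulated replicate 3, the highest of its group, the interaction was −3.30 (adjusted p = 0.0602).

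Egr2, a zinc finger transcription factor that maintains the IL-4 programme in macrophages (ENSMUSG00000037868, chr10:67535475-67542188), measured 6.16, 4.97 and 5.50 CPM in unstimulated and 242, 202 and 243 CPM in IL-4-treated control shRNA cells, and 15.3, 10.1 and 16.1 against 114, 91.2 and 131 CPM with the Etv1 hairpin. As for Arg1, the hairpin groups did not overlap in either condition, with Etv1 shRNA higher at rest and lower after IL-4. The interaction was −2.32 ± 0.36 (edgeR, adjusted p = 0.00242), from an IL-4 effect of 5.35 ± 0.26 to one of 3.03 ± 0.24. Tgm2, a transglutaminase used as an IL-4 mark in mouse and human macrophages, did not follow the same course with both hairpins: 525, 617 and 533 CPM went to 814, 726 and 781 CPM with the control hairpin, and 361, 433 and 376 CPM to 301, 368 and 343 CPM with the Etv1 hairpin. IL-4 raised Tgm2 in control shRNA cells (0.47 ± 0.09, adjusted p = 2.34e-04), the change with the Etv1 hairpin did not pass the test (−0.21 ± 0.09, adjusted p = 0.115), and the interaction was −0.68 ± 0.12 (edgeR, adjusted p = 0.0026). Clec7a, the beta-glucan receptor Dectin-1, Atp6v0d2, a subunit of the vacuolar proton pump, and Ppargc1b, a coactivator of mitochondrial genes, had interactions of −0.96, −1.36 and −1.27. Clec7a was called without only 2 of the 12 libraries in turn (adjusted p 0.0132 to 0.136) and Ppargc1b without 3 (0.0188 to 0.148), whereas Atp6v0d2 was called without each of the 12.

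Several hallmarks did not pass the test. Retnla was at 0 counts in unstimulated control shRNA cells and at 1 count in unstimulated Etv1 shRNA cells, and IL-4 took it to 5.64, 3.61 and 6.31 CPM with the control and to 81.2, 48.3 and 95.6 CPM with the Etv1 hairpin. Every IL-4-treated Etv1 shRNA library was above every control one (hairpin effect with IL-4 3.84, edgeR adjusted p = 1.98e-06), in contrast to Arg1. IL-4 raised Retnla at least 74.5-fold with the control hairpin, against a floor of 3 counts over the group, and 2410-fold with the Etv1 hairpin (95% exact binomial interval 431 to 95100, counting error only). The fitted interaction of Retnla depends on the prior count and gave an adjusted p of 0.967. Chil3 measured 0, 0.245 and 0.102 CPM at rest and 8.57, 10.3 and 10.9 CPM with IL-4 in control shRNA cells, and 0.134, 0.335 and 0 against 6.11, 5.16 and 7.16 CPM with the Etv1 hairpin, an interaction of −1.34 ± 1.01 (edgeR, adjusted p = 0.602). Mrc1 spread widely among control libraries, 39 to 220 CPM at rest and 815 to 2090 CPM with IL-4, against 96.1 to 227 and 726 to 1100 CPM with the Etv1 hairpin, and its interaction was −0.94 ± 0.80 (adjusted p = 0.673), which became −1.38 without control shRNA unstimulated replicate 1 and −0.49 without control shRNA unstimulated replicate 2. Pdcd1lg2, the checkpoint ligand PD-L2, was at 1 count at rest with each hairpin and at 17.4, 10.8 and 15.1 CPM with IL-4 in control shRNA against 3.83, 4.33 and 4.09 CPM in Etv1 shRNA cells. The ratio of Pdcd1lg2 counts with and without IL-4 was 633 (95% exact binomial interval 113 to 25000) with the control and 132 (23.2 to 5240) with the Etv1 hairpin, and the interaction gave an adjusted p of 0.746 in edgeR. The chemokines Ccl17 and Ccl24 did not exceed 1.47 CPM in any of the 12 libraries, and Ccl17 was not tested.

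In the receptor pathway, 16 genes were tested. Of these, Socs1 was lower and Ptpn6 higher in edgeR, against 1.81% and 2.71% of all genes. With the replicate block 2 were lower and 3 higher. Socs1 (ENSMUSG00000038037, chr16:10782240-10785536), whose promoter is printed above, measured 1.76, 2.36 and 2.95 CPM at rest and 119, 93.7 and 141 CPM with IL-4 in control shRNA cells, and 4.71, 3.43 and 3.05 against 35.4, 44.7 and 37.6 CPM with the Etv1 hairpin. The IL-4-treated Etv1 shRNA libraries were all below the control ones. Its interaction was −2.27 ± 0.42 (edgeR, adjusted p = 0.00587), from 5.72 ± 0.25 to 3.44 ± 0.25. Ptpn6, the phosphatase SHP-1, which dampens cytokine receptor signals, had a higher interaction of 0.34 ± 0.07 (adjusted p = 0.00914), which was not called without control shRNA IL-4 replicate 1 (0.27, adjusted p = 0.0607), and without that library the list held 1 called gene. Stat6 measured 475 to 480 CPM at rest and 387 to 423 CPM with IL-4 in control shRNA cells, and 466 to 483 against 448 to 480 CPM with the Etv1 hairpin. The Stat6 interaction of 0.19 ± 0.07 did not pass the test (edgeR, adjusted p = 0.124) but did with the replicate block (adjusted p = 0.0333). Il4ra, the receptor's binding chain, had an interaction of −0.15 ± 0.16 (adjusted p = 0.748), which became −0.29 without Etv1 shRNA unstimulated replicate 3 and −0.012 without Etv1 shRNA unstimulated replicate 2.

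**Figure D3:**
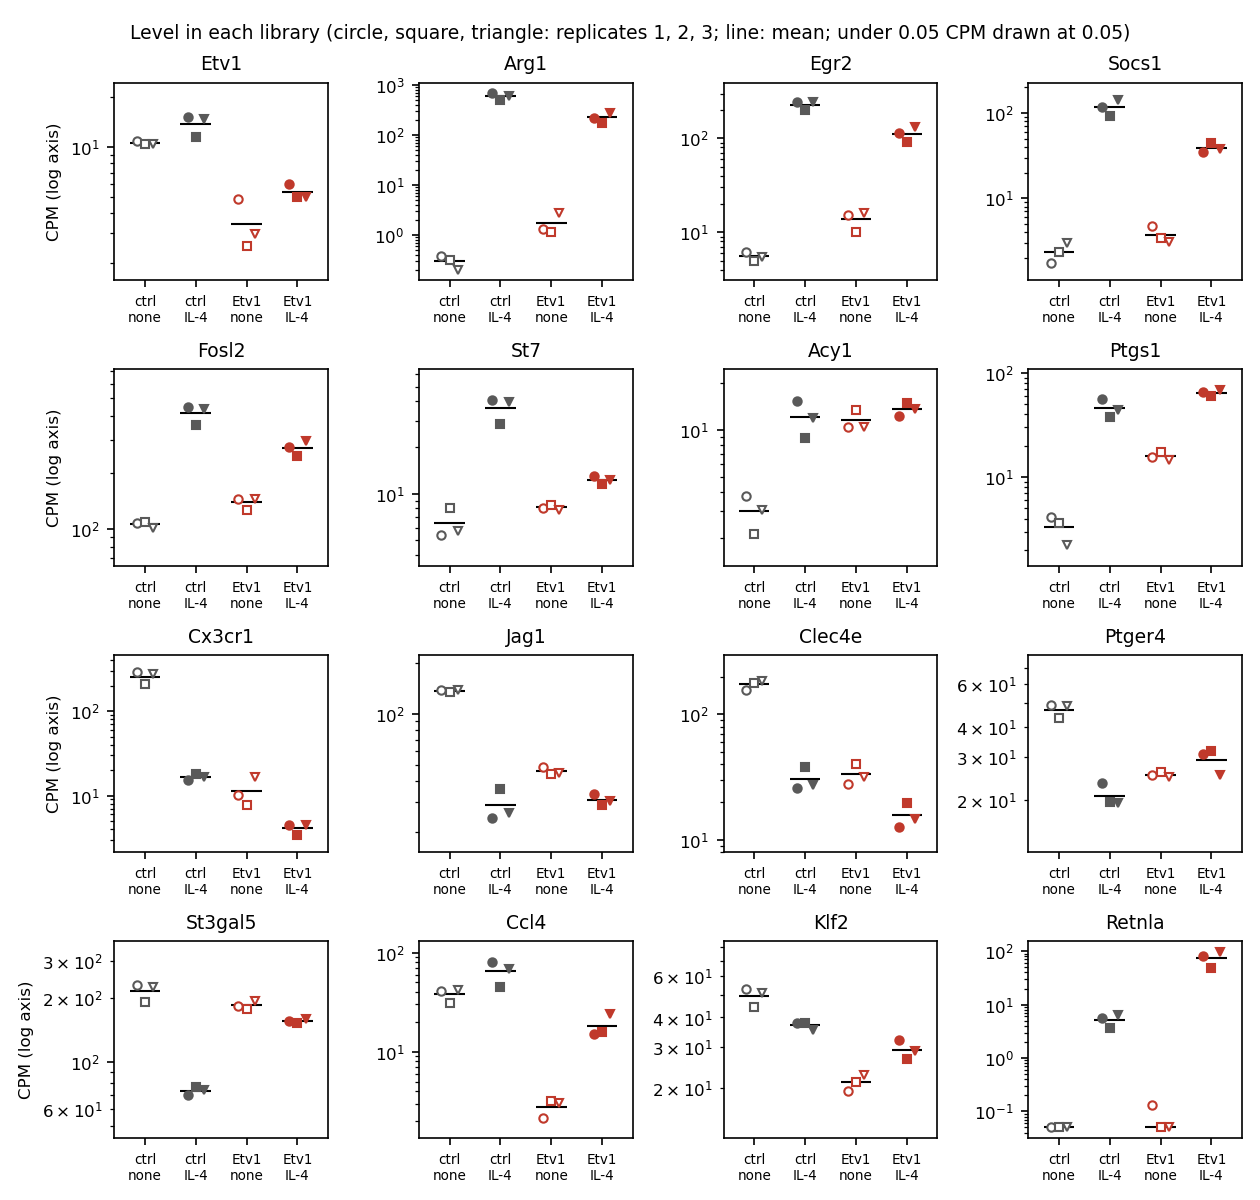
Level in CPM (log axis) of 16 genes in each of the 12 libraries, with the control (grey) or the Etv1 hairpin (red), unstimulated (open) and with IL-4 (filled); circles, squares and triangles are replicates 1, 2 and 3 and lines are means. Arg1, Egr2, Socs1, Fosl2 and St7 end lower after IL-4 with the Etv1 hairpin, Acy1 and Ptgs1 start higher, Cx3cr1, Jag1, Clec4e, Ptger4 and Klf2 start lower, and Retnla ends higher, at 48.3 to 95.6 against 3.61 to 6.31 CPM.

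Beyond the fixed marks, the lowest interactions belonged to genes of mixed function. Serpina3g, a serine protease inhibitor of the cathepsin-inhibiting Serpina3 cluster, had 2 counts at rest with the control and 22 with the Etv1 hairpin, and 29.2, 25.4 and 25.4 CPM against 12.4, 17.9 and 14.3 CPM with IL-4. The IL-4 groups did not overlap, and Serpina3g counts are uncertain because the cluster holds near-identical copies. The ratio of Serpina3g counts with and without IL-4 was 575 in control shRNA cells (95% exact binomial interval 159 to 4760), and the fitted interaction of −4.44 (edgeR, adjusted p = 0.00352) depends on the prior count. St7, named as a suppressor of tumorigenicity, measured 5.38, 8.07 and 5.70 CPM at rest and 40.6, 28.5 and 39.6 CPM with IL-4 in control shRNA cells, and 8.07, 8.46 and 7.81 against 13.1, 11.5 and 12.2 CPM with the Etv1 hairpin. The unstimulated St7 groups overlapped, and the IL-4 groups were separate. The St7 interaction was −1.93 ± 0.22 (edgeR, adjusted p = 4.84e-05). Chst7, a sulfotransferase acting on chondroitin, went from 2.59, 2.28 and 3.67 to 62.4, 44.5 and 66.3 CPM with the control and from 7.40, 4.44 and 5.93 to 33.9, 29.2 and 34.4 CPM with the Etv1 hairpin, an interaction of −1.89 ± 0.35 (adjusted p = 0.00449).

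A few of the lower genes differed mainly at rest. Acy1, which removes acetyl groups from amino acids, measured 3.77, 2.12 and 3.05 CPM at rest and 15.4, 8.81 and 11.9 CPM with IL-4 in control shRNA cells, and 10.5, 13.5 and 10.5 against 12.3, 15 and 13.6 CPM with the Etv1 hairpin. Unstimulated Etv1 shRNA libraries stood above unstimulated control libraries by 1.91 (log2, adjusted p = 6.66e-07), and the IL-4 groups overlapped. The Acy1 interaction was −1.75 ± 0.29 (edgeR, adjusted p = 0.00121). Ptgs1, the constitutive cyclooxygenase, went from 4.16, 3.59 and 2.24 to 55.8, 37.5 and 44.1 CPM with the control and from 15.5, 17.5 and 14.5 to 65.7, 60.5 and 67.9 CPM with the Etv1 hairpin. It was higher in Etv1 shRNA cells in both conditions, and its interaction was −1.69 ± 0.22 (adjusted p = 1.88e-04) although the gain in CPM was 42.5 with the control and 48.9 with the Etv1 hairpin. Such a change of sign between the log2 and CPM scales was seen for 24 of the 559 called genes. Ocstamp, a membrane protein needed for the fusion of macrophages and osteoclasts, and Ggt5, a gamma-glutamyl transferase, had interactions of −1.54 ± 0.27 and −1.60 ± 0.26 (adjusted p = 0.0021 and 8.35e-04), and the CPM gain of Ggt5 was likewise larger with the Etv1 hairpin, 13.1 against 10.8.

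Some genes with a lower interaction encode transcription factors. Of 17 ETS factors tested, 2 were lower (Etv3 and Elf4) and 1 higher (Gabpa), against 1.81% and 2.71% of all genes. Etv3, an ETS repressor of macrophage proliferation (ENSMUSG00000003382, chr3:87525407-87540156), measured 190, 204 and 182 CPM at rest and 569, 579 and 555 CPM with IL-4 in control shRNA cells, and 193, 171 and 194 against 332, 325 and 335 CPM with the Etv1 hairpin. The 2 unstimulated groups overlapped and the IL-4 groups stood apart, for an interaction of −0.73 ± 0.08 (edgeR, adjusted p = 4.84e-05). Elf4, also an ETS factor, had an interaction of −0.38 ± 0.08 (adjusted p = 0.00883), and Gabpa, a regulator of mitochondrial genes, one of 0.30 ± 0.08 (adjusted p = 0.0382) that was called without only 2 of the 12 libraries in turn (adjusted p 0.0317 to 0.112).

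Among 25 MAP kinase feedback and early genes tested, 4 were higher (Dusp5, Spry2, Dusp6 and Fos) and 2 lower (Fosl2 and Egr2), against 2.71% and 1.81% of all genes. With the replicate block 8 were higher and 4 lower, and the count of 6 was 3 without control shRNA unstimulated replicate 1 and 2 without control shRNA IL-4 replicate 1. Fosl2, an AP-1 subunit (ENSMUSG00000029135, chr5:32135801-32157842), went from 108, 109 and 101 to 448, 360 and 436 CPM with the control and from 145, 126 and 144 to 273, 246 and 295 CPM with the Etv1 hairpin. Etv1 shRNA cells were higher at rest and lower with IL-4, without overlap, and the interaction was −1.0 ± 0.11 (edgeR, adjusted p = 4.84e-05). Fos, an immediate early AP-1 subunit of the same family, ran the other way: 319, 335 and 338 CPM fell to 87.1, 145 and 100 CPM with the control and 326, 332 and 347 to 196, 198 and 207 CPM with the Etv1 hairpin. The Fos interaction was 0.84 ± 0.22 (adjusted p = 0.0458), and it was called without only 1 of the 12 libraries in turn (adjusted p 6.99e-04 to 0.123). The feedback inhibitors Dusp5, Spry2 and Dusp6 had interactions of 0.60, 0.78 and 0.43 (adjusted p = 0.00859, 0.0154 and 0.038), of which Dusp5 was lost without control shRNA IL-4 replicate 1 (0.51, adjusted p = 0.0628), Spry2 without that library (0.71, adjusted p = 0.0683) and without control shRNA unstimulated replicate 1 (0.71, adjusted p = 0.0506), and Dusp6 without 10 of the 12. For Dusp5 the fall in CPM was larger with the Etv1 hairpin, −15 against −9.50. Myc, the growth-driving transcription factor, had an interaction of −0.18 ± 0.13 that did not pass the test (adjusted p = 0.559).

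The genes with the highest interactions were mostly lowered by IL-4, and less so with the Etv1 hairpin. Cx3cr1, the fractalkine receptor of resident macrophages (ENSMUSG00000052336, chr9:119901616-120069879), measured 287, 208 and 273 CPM at rest and 15.2, 18 and 16.6 CPM with IL-4 in control shRNA cells, and 10.2, 7.79 and 16.4 against 4.45, 3.41 and 4.47 CPM with the Etv1 hairpin. Unstimulated Etv1 shRNA libraries lay within or below the range of IL-4-treated control libraries. The Cx3cr1 interaction was 2.45 ± 0.39 (edgeR, adjusted p = 0.00244). Cx3cr1 was the only called gene of the 18 macrophage identity genes, against 2.71% higher and 1.81% lower of all genes. The replicate block called 5 of the 18 higher and 1 lower, and the fit without control shRNA IL-4 replicate 2 called 2 in all. Jag1, a Notch ligand (ENSMUSG00000027276, chr2:137081456-137116644) whose promoter is printed above, went from 138, 134 and 138 to 24.3, 36.0 and 26.0 CPM with the control and from 48.3, 43.7 and 44.7 to 33.4, 29.0 and 30.4 CPM with the Etv1 hairpin. The unstimulated groups were far apart and the IL-4 groups overlapped, with an interaction of 1.70 ± 0.14 (edgeR, adjusted p = 1.13e-06). The hairpin effect on Jag1 was −1.59 at rest (adjusted p = 6.51e-11) and 0.11 with IL-4 (adjusted p = 0.379).

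St3gal5, which makes the ganglioside GM3 (ENSMUSG00000056091, chr6:72097592-72154571), showed the reverse arrangement. It measured 232, 193 and 226 CPM at rest and 70.0, 76.6 and 73.9 CPM with IL-4 in control shRNA cells, and 185, 179 and 194 against 156, 153 and 159 CPM with the Etv1 hairpin. The unstimulated groups met between 193 and 194 CPM, and IL-4 left all Etv1 shRNA libraries above all control ones. The St3gal5 interaction was 1.31 ± 0.10 (edgeR, adjusted p = 1.06e-06). Psd3, an exchange factor for the small GTPase ARF6, resembled it, going from 153, 117 and 135 to 26.8, 26.3 and 24 CPM with the control and from 125, 101 and 122 to 64.2, 50.6 and 62.9 CPM with the Etv1 hairpin (interaction 1.42 ± 0.20, adjusted p = 8.09e-04). Mycl, a Myc family transcription factor, went from 4.70, 3.59 and 7.03 to 0.22, 0.226 and 0.338 CPM with the control and from 8.61, 6.70 and 6.40 to 2.48, 2.21 and 2.23 CPM with the Etv1 hairpin, an interaction of 2.61 ± 0.53 (adjusted p = 0.00569). In the IL-4-treated control libraries 3 counts corresponded to 0.212, 0.32 and 0.326 CPM, so the low end level limits the precision for Mycl. Sncaip, which binds alpha-synuclein, and the potassium channel gene Kcnk12 had interactions of 2.27 ± 0.44 and 1.76 ± 0.30 (adjusted p = 0.00552 and 0.00187). The fall in CPM was slightly larger with the Etv1 hairpin for Mycl, −4.93 against −4.84, and larger for Kcnk12, −16.2 against −9.36.

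For several genes the IL-4 effect itself passed the test with only 1 hairpin. Ptger4, the prostaglandin E2 receptor EP4, measured 49.4, 43.4 and 48.7 CPM at rest and 23.4, 19.7 and 19.5 CPM with IL-4 in control shRNA cells, and 25.4, 26.0 and 24.8 against 30.9, 31.7 and 25.3 CPM with the Etv1 hairpin. Control cells lost Ptger4 with IL-4 (−1.17 ± 0.12, adjusted p = 1.24e-07), the change in Etv1 shRNA cells was 0.21 ± 0.12 (adjusted p = 0.278), and the interaction was 1.37 ± 0.17 (edgeR, adjusted p = 6.28e-05). Aatk, a neuronal kinase gene also expressed in myeloid cells, went from 22.1, 21.8 and 20.7 to 28.2, 24.3 and 23.9 CPM with the control and from 3.09, 3.18 and 1.87 to 7.76, 9.11 and 9.96 CPM with the Etv1 hairpin. All Etv1 shRNA libraries were below all control ones, and the Aatk interaction was 1.5 ± 0.22 (adjusted p = 4.12e-04).

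In 10 genes IL-4 lowered the level with the control hairpin and raised it with the Etv1 hairpin, each change passing the test in edgeR. They were Clec5a, Klf2, Ankrd37, Kansl1l, 6430548M08Rik, Fam49a, Rassf3, Pkp4, Otulinl and Fkbp5, and were singled out after their values were seen. Clec5a, a DAP12-coupled lectin receptor of myeloid cells (ENSMUSG00000029915, chr6:40574894-40585821), went from 107, 86.2 and 102 to 54.0, 63.7 and 53.1 CPM with the control and from 57.4, 62.0 and 49.7 to 75.9, 69.8 and 66.7 CPM with the Etv1 hairpin. The 2 hairpins thus changed order between conditions, with an interaction of 1.13 ± 0.13 (edgeR, adjusted p = 4.84e-05). Klf2, a zinc finger factor that restrains myeloid activation (ENSMUSG00000055148, chr8:72319033-72321656), went from 53.0, 44.3 and 51.1 to 37.8, 38.0 and 35.3 CPM with the control and from 19.4, 21.2 and 22.7 to 32.0, 26.5 and 28.8 CPM with the Etv1 hairpin. Klf2 was lower with the Etv1 hairpin in both conditions, and its interaction was 0.87 ± 0.14 (adjusted p = 8.09e-04).

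Of 19 inflammatory mediators tested, 5 had a higher and 0 a lower interaction in edgeR, against 2.71% and 1.81% of all genes: Clec4e, Tnfaip3, Nfkbiz, Ccl4 and Ccl3. DESeq2 also called 5 higher and 0 lower, and at an unadjusted p under 0.05 there were 7 higher and 1 lower. The replicate block gave 7 higher and 1 lower, and the count was 3 without Etv1 shRNA unstimulated replicate 1, without Etv1 shRNA unstimulated replicate 3, without control shRNA unstimulated replicate 1, and with no filter on low counts. Clec4e, the receptor Mincle for mycobacterial glycolipids, measured 157, 179 and 185 CPM at rest and 26.1, 38.0 and 27.3 CPM with IL-4 in control shRNA cells, and 27.7, 40.4 and 31.9 against 12.8, 19.6 and 14.7 CPM with the Etv1 hairpin. It fell from a lower start with the Etv1 hairpin, and the interaction was 1.43 ± 0.24 (edgeR, adjusted p = 0.00275). Ccl4, a chemokine that draws lymphocytes and monocytes, rose instead, from 40.9, 30.7 and 41.8 to 81.0, 45.3 and 67.5 CPM with the control and from 2.15, 3.18 and 3.05 to 15.1, 15.7 and 24.2 CPM with the Etv1 hairpin. All Etv1 shRNA libraries were below all control libraries, so that the interaction of 1.89 ± 0.43 (adjusted p = 0.0209) went with a smaller gain in CPM, 15.6 against 26.8. It was not called without any one of the Etv1 shRNA unstimulated libraries (adjusted p 0.0645, 0.0569 and 0.0636) or control shRNA unstimulated replicate 1 (0.055). Tnfaip3, which encodes the NF-kappaB inhibitor A20, went from 43.0, 44.0 and 47.8 to 73.5, 68.6 and 75.2 CPM with the control and from 8.61, 9.55 and 8.51 to 22.1, 22.1 and 26.0 CPM with the Etv1 hairpin, an interaction of 0.70 ± 0.15 (adjusted p = 0.00749) with a CPM gain of 27.5 against 14.5. The chemokine gene Ccl3 was called without 6 of the 12 libraries in turn (adjusted p 0.0031 to 0.102), and Nfkbiz, an atypical NF-kappaB inhibitor, without 11. Of 38 interferon response genes tested, 0 were called in edgeR or DESeq2, 0 had an unadjusted p under 0.05, and 1 was called with the replicate block.

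Among cell division genes, most calls were in mitotic genes. Of 26 mitosis genes tested, 7 were higher (Tpx2, Top2a, Kif11, Mki67, Kif23, Cenpf and Kif20a) and 0 lower in edgeR, against 2.71% and 1.81% of all genes. DESeq2 gave the counts 7 and 0. At an unadjusted p under 0.05 there were 16 higher and 0 lower, and with the replicate block 13 were higher and 0 lower. The median IL-4 effect of the list was −1.06 (log2) with the control, −0.64 with the Etv1 hairpin and −0.29 in wild type, and its median interaction was 0.41. The count was 4 without Etv1 shRNA unstimulated replicate 3 and 3 without control shRNA unstimulated replicate 1. Tpx2, a spindle assembly factor, measured 59.7, 50.6 and 57.0 CPM at rest and 30.1, 31.4 and 29.2 CPM with IL-4 in control shRNA cells, and 29.7, 32.9 and 29.2 against 25.7, 27.1 and 27.0 CPM with the Etv1 hairpin. Unstimulated Etv1 shRNA libraries stood at the level of IL-4-treated control libraries, and the interaction was 0.68 ± 0.11 (edgeR, adjusted p = 7.69e-04). Top2a, the topoisomerase of dividing cells, went from 157, 138 and 138 to 66.0, 60.8 and 64.7 CPM with the control and from 76.0, 75.7 and 75.7 to 49.1, 48.0 and 47.4 CPM with the Etv1 hairpin (interaction 0.53 ± 0.09, adjusted p = 0.0012). Cenpf, a kinetochore protein whose promoter is printed above, had an interaction of 0.74 ± 0.19 (adjusted p = 0.0299) and was called without 5 of the 12 libraries in turn (0.0152 to 0.114). Kif20a, Kif23 and Mki67 were called without 4, 7 and 9 of the 12. Of 31 DNA replication genes 1 was called, Fen1, the flap endonuclease, at 0.35 ± 0.09 (adjusted p = 0.0333, called without 5 of the 12 libraries in turn), and of 10 D cyclins and CDK inhibitors 1 was called, Cdkn1a, the p53 target p21, at −0.62 ± 0.17 (adjusted p = 0.0454, called without 1 of the 12). With the replicate block 3 of these 10 were higher and 1 lower, DESeq2 and the fit without both control libraries numbered 2 each gave 1 higher and 1 lower, and the 12 libraries alone gave 0 called. Without both control libraries numbered 2, Fen1 was not called either, and no other DNA replication gene was.

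Glucose metabolism held both directions. Of 24 glycolysis and hypoxia genes tested, 7 were higher (Pfkfb3, Slc16a3, Hk1, Ankrd37, Tpi1, Vegfa and Slc2a1) and 2 lower (Pfkfb4 and Pfkp), against 2.71% and 1.81% of all genes. The median interaction was 0.30. The list's median IL-4 effect was −0.40 (log2) with the control and −0.096 with the Etv1 hairpin. In wild type it was 0.18, opposite in sign to control shRNA cells. Tpi1 and Slc2a1 were each called without only 2 of the 12 libraries in turn (adjusted p 0.0117 to 0.182 and 0.0375 to 0.184), Vegfa without 4 (0.0193 to 0.108) and Ankrd37 without 6 (0.00326 to 0.0981). The replicate block called 14 higher and 2 lower, and leaving out any one of 6 libraries (Etv1 shRNA unstimulated replicate 2, Etv1 shRNA IL-4 replicates 1 and 3, control shRNA unstimulated replicate 1, control shRNA IL-4 replicates 1 and 3) left 5 called. Pfkfb3, an enzyme that sets the flux of glycolysis, went from 87.2, 109 and 88.0 to 46.3, 60.5 and 43.6 CPM with the control and from 43.2, 46.0 and 44.8 to 38.7, 43.9 and 42.6 CPM with the Etv1 hairpin. The hairpins differed at rest and overlapped with IL-4, an interaction of 0.82 ± 0.15 (edgeR, adjusted p = 0.00281). Its relative Pfkfb4, in contrast, rose from 36.6, 42.6 and 35.2 to 138, 124 and 149 CPM with the control and from 33.1, 29.4 and 32.4 to 73.2, 66.7 and 81.7 CPM with the Etv1 hairpin, an interaction of −0.62 ± 0.13 (adjusted p = 0.00737). The lactate exporter gene Slc16a3 and hexokinase 1 (Hk1) had interactions of 0.61 ± 0.11 and 0.51 ± 0.10 (adjusted p = 0.00298 and 0.00389).

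**Figure D4:**
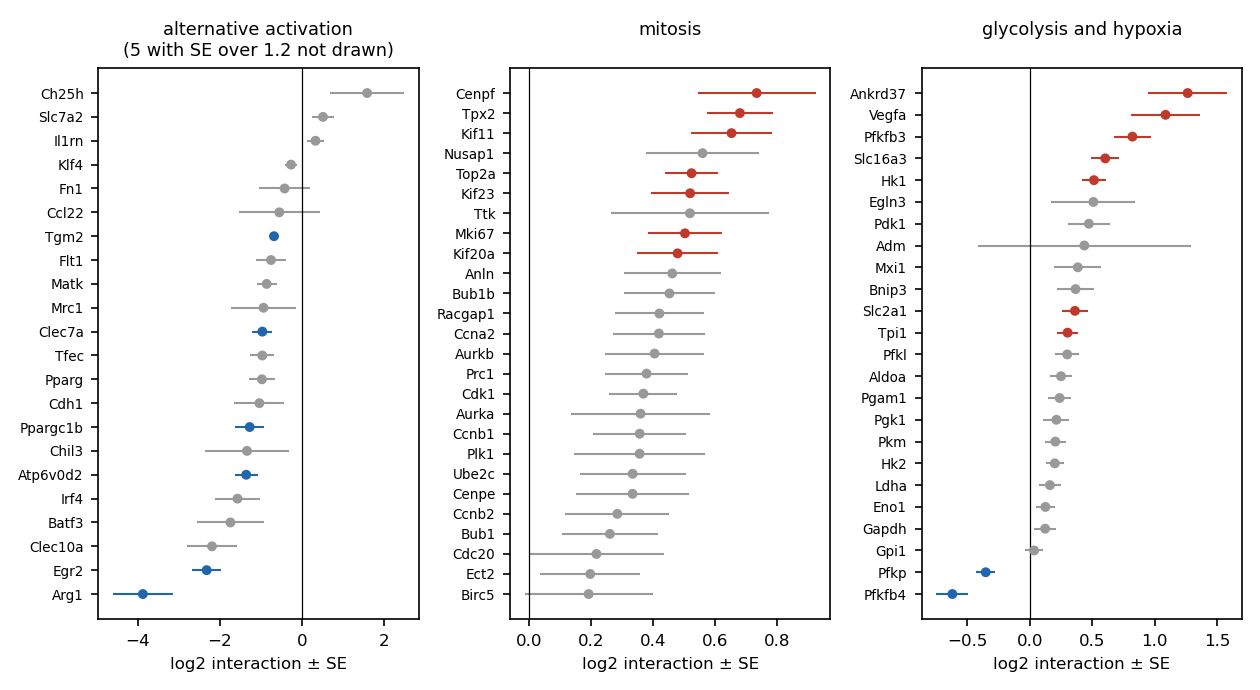
Log2 interaction with its SE (x axis) for tested members of the alternative activation, mitosis and glycolysis and hypoxia lists. Called genes are in red (higher) or blue (lower), and members with an SE above the limit named in a panel title are not drawn. Of alternative activation genes 6 are called and all are below 0, of mitosis genes 7 are called and all are above 0, and of glycolysis and hypoxia genes 7 are called above and 2 below 0.

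Mitochondrial and lipid lists held 0 to 2 called genes each, where over all genes tested 2.71% were higher and 1.81% lower. None of 69 nuclear genes of oxidative phosphorylation, 11 genes encoded by mitochondrial DNA, 20 fatty acid oxidation genes or 11 genes of the list of LXR targets and lipid synthesis was called in edgeR or in DESeq2. The replicate block called 0, 0, 1 and 3 of them, and at an unadjusted p under 0.05 there were 0, 0, 2 and 1. Without control shRNA IL-4 replicate 2, 1 fatty acid oxidation gene and 2 of the LXR and lipid synthesis list were called, 1 fatty acid oxidation gene was called without control shRNA unstimulated replicate 2, and 2 of the LXR and lipid synthesis list without both of these libraries. Median interactions of these 4 lists lay between −0.02 and 0.04, and 0.02 was the median of all genes. Of 24 genes of the TCA cycle and malate-aspartate shuttle, Slc25a13, the mitochondrial aspartate-glutamate carrier, was lower: 39.9, 39 and 40.0 CPM rose to 114, 95.4 and 116 CPM with the control and 63.5, 63.6 and 62.5 CPM to 93.9, 90.3 and 90.1 CPM with the Etv1 hairpin. Etv1 shRNA cells were above control cells at rest and below them with IL-4, and the interaction was −0.92 ± 0.15 (edgeR, adjusted p = 0.00135). Among 23 genes of cholesterol synthesis tested, 2 (8.70%) were higher and 0 lower in edgeR, and the replicate block called 3 higher. Stard4, a sterol carrier, was 1 of the 2, at 0.83 ± 0.15 (edgeR, adjusted p = 0.00222). Leaving out 1 library at a time gave 1 to 4 called genes in this list, with 4 without control shRNA IL-4 replicate 2.

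**Figure D5:**
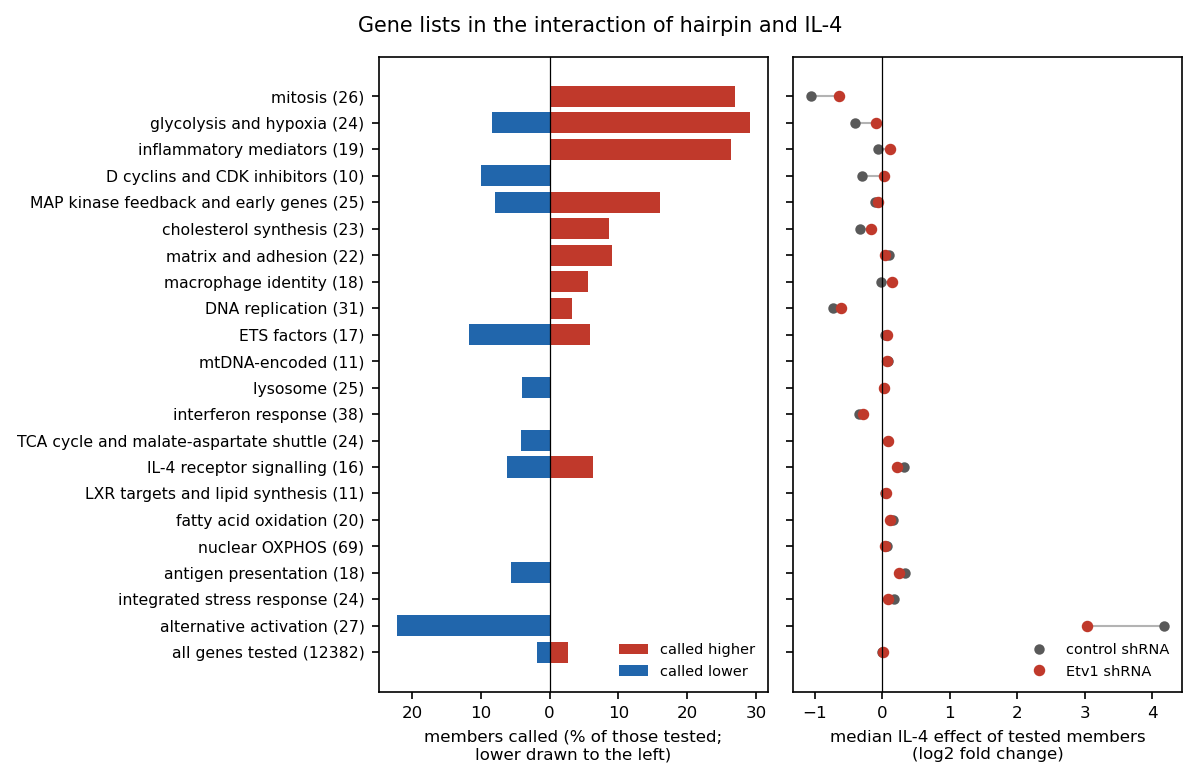
Left, the share of tested members called higher (red, to the right) or lower (blue, to the left) in the interaction, for lists with at least 10 tested members. Right, the median IL-4 effect (log2 fold change) of the tested members with the control (grey) and the Etv1 hairpin (red). Over all 12382 genes 2.71% were higher and 1.81% lower; the alternative activation medians are 4.18 and 3.03, and the mitosis medians −1.06 and −0.64.

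Adhesion, uptake and stress lists held 0 to 2 called genes each. Shares were 9.09% higher for matrix and adhesion, 4% lower for lysosomal and 5.56% lower for antigen presentation genes. Over all genes tested 2.71% were higher and 1.81% lower. The integrins Itga6, which binds laminin, and Itga4, which binds VCAM-1, were the 2 higher of 22 matrix and adhesion genes. Itga6 went from 387, 316 and 351 to 96.9, 116 and 100 CPM with the control and from 235, 212 and 248 to 140, 129 and 142 CPM with the Etv1 hairpin. Etv1 shRNA libraries were below the control ones at rest and above them with IL-4, an interaction of 1.0 ± 0.12 (edgeR, adjusted p = 1.07e-04). Itga4, at 0.68 ± 0.18 (adjusted p = 0.0395), was called without 3 of the 12 libraries in turn, and the replicate block called 6 higher and 5 lower in the list. DESeq2, and the fit without both control libraries numbered 2, each called 3 higher and 3 lower, 4 were called without control shRNA IL-4 replicate 2, and 1 was called without any one of 8 of the other libraries. Of 25 lysosomal genes 1 was called, Npc1, the cholesterol exporter, at −0.42 ± 0.09 (adjusted p = 0.00843), with 2 higher and 2 lower under the replicate block, and of 18 antigen presentation genes 1, the costimulatory ligand Cd80, at −0.50 ± 0.14 (adjusted p = 0.0492, called without 3 of the 12 and not without both control libraries numbered 2). Of 24 integrated stress response genes 0 were called in edgeR, 2 were higher and 2 lower at an unadjusted p under 0.05, DESeq2 called 1 lower, and the replicate block called 2 higher and 3 lower. Without control shRNA IL-4 replicate 2, and without both control libraries numbered 2, 2 were called. With no filter on low counts 1 was called, and with the 12 libraries alone 1. Gadd45a, in contrast to most lower genes, was lowered by IL-4 in wild type cells (−0.48, log2). With the control hairpin it instead rose, from 23.5, 25.1 and 23.8 to 42.5, 39 and 38.1 CPM. With the Etv1 hairpin it went from 8.07, 8.79 and 6.79 to 6.11, 7.37 and 4.75 CPM. Wild type and control shRNA cells thus differed in direction for this gene. Etv1 shRNA libraries were lower than control ones in both conditions, and the Gadd45a interaction was −1.10 ± 0.17 (edgeR, adjusted p = 7.17e-04).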

How the data were processed

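The deposited files hold whole-number counts of reads for each Ensembl gene, made by the authors with STAR and featureCounts on GRCm38, per the submitters' processing notes; versions, annotation and strand setting were not given in the sources used here. Counts of overlapping genes and of genes with near-identical copies are therefore uncertain. The labels' protocols name a stranded mRNA kit and a HiSeq instrument. Of 43629 gene IDs, 42548 (97.52%) matched GENCODE M21 on GRCm38, and unmatched IDs held 0.153% of reads.

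Counts of all 18 shRNA libraries in 6 groups were fitted with edgeR 4.0.16 in R 4.3.3 (robust quasi-likelihood, TMM, filterByExpr), without a replicate block, and p-values were adjusted over 12382 genes by the Benjamini-Hochberg method, with a gene called at an adjusted p under 0.05. The 12 wild type libraries were fitted alone (12824 genes). CPM used TMM library sizes, and SE is the log2 effect over the square root of F. Leaving out 1 library leaves a group of 2 whose spread is taken from all groups. Alternatives were DESeq2 1.42.0, other size factors, filters, libraries and blocks. Intervals and floors cover counting error only.

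The members, lists and tests were chosen with earlier results of these data known. Named were 11 set genes, the 15 highest and 15 lowest called interactions with at least 5 CPM in a group and a symbol that is no model name, and up to 3 called members of each of 29 lists; the other called list members, and Cenpf, Tmem144, Klf2, Clec5a, Epha2, Pim3, Tbc1d4 and Gadd45a, were added after their values were seen. A few genes are not reported here, though all genes stayed in the fits and counts. Nothing in the labels tells whether the 3 replicates of a group were separate animals or cultures, and p-values therefore cover no more than the variation among these libraries, which may be technical. Deviations from group means of libraries with the same number correlated at 0.333, 0.49 and 0.213 with the control hairpin and 0.187, 0.309 and 0.325 with the Etv1 hairpin (correlations across genes), so numbers were taken to pair libraries within a hairpin. Across hairpins the correlations ran from −0.023 to 0.224, and numbers were not taken to pair them. Replicates differed by more than sampling noise and each was counted as its own sample.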

Additional observations from a re-analysis of the deposited data

Results flagged for a closer look

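For the 77 named genes called in the interaction, the IL-4 effect differed between hairpins by the test of the difference itself (edgeR, adjusted p under 0.05), and their log2 interactions are given together here. The higher interactions of 1 or more were those of Mycl 2.61, Cx3cr1 2.45, Sncaip 2.27, Nap1l2 2.09, Ccl4 1.89, Kcnk12 1.76, Jag1 1.70, Atp2b4 1.55, Aatk 1.5, Clec4e 1.43, Gpr84 1.43, Psd3 1.42, Ptger4 1.37, St3gal5 1.31, Lpar1 1.30, Ccl3 1.27, Ankrd37 1.27, Nfkbiz 1.14, Clec5a 1.13, Vegfa 1.09 and Itga6 1.0. Between 0.60 and 1 lay those of Klf2 0.87, Fos 0.84, Stard4 0.83, Pfkfb3 0.82, Spry2 0.78, Tbc1d4 0.75, Cenpf 0.74, Tnfaip3 0.70, Tpx2 0.68, Itga4 0.68, Epha2 0.68, Kif11 0.65, Slc16a3 0.61, Pim3 0.61 and Dusp5 0.60. Below 0.60 lay those of Top2a 0.53, Kif23 0.52, Hk1 0.51, Mki67 0.50, Kif20a 0.48, Dusp6 0.43, Slc2a1 0.36, Fen1 0.35, Ptpn6 0.34, Gabpa 0.30 and Tpi1 0.30. The lower interactions of −1.0 or below were those of Serpina3g −4.44, Arg1 −3.87, Egr2 −2.32, Socs1 −2.27, Il4i1 −2.10, St7 −1.93, Chst7 −1.89, Hebp2 −1.82, Acy1 −1.75, Msx3 −1.74, Ptgs1 −1.69, Ggt5 −1.60, Rab11fip4 −1.57, Ocstamp −1.54, Ccdc88c −1.52, Atp6v0d2 −1.36, Ppargc1b −1.27, Gadd45a −1.10 and Fosl2 −1.0. Above −1.0 lay those of Clec7a −0.96, Tmem144 −0.93, Slc25a13 −0.92, Etv3 −0.73, Tgm2 −0.68, Cdkn1a −0.62, Pfkfb4 −0.62, Cd80 −0.50, Npc1 −0.42, Elf4 −0.38 and Pfkp −0.35. Of these genes, 44 were called without each of the 12 libraries in turn, and 33 were not: Cdkn1a and Fos without 1, Clec7a, Dusp6, Gabpa, Hebp2, Slc2a1 and Tpi1 without 2, Ccdc88c, Cd80, Itga4 and Ppargc1b without 3, Kif20a, Msx3, Tbc1d4 and Vegfa without 4, Cenpf, Fen1, Il4i1 and Lpar1 without 5, Ankrd37 and Ccl3 without 6, Kif23 without 7, Ccl4 and Pim3 without 8, Mki67 and Nap1l2 without 9, Spry2 without 10 and Arg1, Dusp5, Nfkbiz, Ptpn6 and Rab11fip4 without 11 of the 12 (the number of single libraries whose omission left the gene called).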

How the results depend on the processing

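With the replicate block within hairpin, the genes called rose from 559 to 1413 (845 higher, 568 lower), 168 of the raised wild type list were lower and 151 of the lowered list higher; with the block shared by both hairpins the counts were 984 (585 and 399) and 136 of the raised list, and with the 12 libraries alone and the block within hairpin 1855 (1087 and 768), 189 and 156. Without both control shRNA libraries numbered 2, 341 genes were lower. With lists of at least 4-fold, 30 of 191 raised genes (15.7%) were lower and 19 of 37 lowered genes (51.35%) higher. With the 2-fold lists the shares were 17.9% and 25.7%. Median interactions of the 4-fold lists were −0.86 and 1.03. The cause of these shifts was not tested, and the 4-fold lists also hold fewer genes. Leaving out 1 library at a time gave 360 to 762 called genes (176 to 442 higher, 152 to 320 lower), 68 to 122 of the raised list lower and 58 to 102 of the lowered list higher, with median interactions of −0.54 to −0.48 and 0.50 to 0.73. Other size factors, DESeq2, no filter, a stricter filter and the 12 libraries alone gave 560, 668, 524, 567 and 586 called genes. Wherever they were tested, all 559 genes kept the sign of their interaction in these alternatives.

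Of 77 named genes called, 44 were called without each library in turn and 42 in every alternative. The fits that omit 1 library had no replicate block. With the block within hairpin and no library left out, all 77 were called. Chil3, which did not pass the test, gave −2.60 to 0.13 in the fits that omit 1 library and changed sign only without Etv1 shRNA unstimulated replicate 2. Levels under about 0.433 CPM rest on 3 counts or fewer in the shallowest library. The fits without both control libraries numbered 2 and with block and 12 libraries together, and the CPM scale, were chosen after seeing the data.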
